A study of Homo sapiens with 12 samples.

Results

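The comparison described here is that of THP-1 cells given 20 μM chlorquinaldol with untreated THP-1 cells. It was chosen by treatment label alone, and it takes 6 of the 12 libraries of the study, 3 per group. THP-1 is an established human monocytic leukaemia line. Chlorquinaldol is an antiseptic of the hydroxyquinoline family, compounds that chelate metal ions. The treated cells were harvested after 8 h. For the untreated cells the labels state neither a solvent nor a time, so a difference between the groups may include an effect of solvent or of harvest time, and these cannot be told apart from that of the drug. The other 6 libraries, 3 at 50 μM chlorquinaldol and 3 with the STING agonist 3'-3'-cGAMP, entered the model for its estimate of spread, and the 50 μM libraries are used below to test where a named gene differed between the doses. Nothing states whether the replicates were separate cultures, so p-values measure only the spread between these samples, which may be technical.

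The labelled cell type was checked against 10 monocyte markers. All 10 were detected in every library, from CD33 at 84 to 85.6 counts-per-million (CPM) and LYZ at 466 to 477 CPM in untreated cells down to MPO at 2.17 to 2.82 CPM. Markers of other cell types were scarce. Their summed levels in untreated and treated libraries were 9.25 to 11.1 and 12.2 to 13.4 CPM for T and NK cells, 7.53 to 8.54 and 13.1 to 15.9 CPM for B cells, 2.38 to 4.1 and 2.5 to 3.13 CPM for fibroblasts, 0.828 to 1.33 and 1.2 to 1.71 CPM for erythroid and megakaryocyte cells, and 0.352 to 0.621 and 0.341 to 0.5 CPM for epithelium. The part of other cell types in the results below was not tested.

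Libraries held 18910085 to 19023005 counts in untreated cells and 17620929 to 18926562 in treated cells, and 16628 genes passed the filter on low counts. Of these, 9155 (55.1%) were called at an adjusted p below 0.05 (edgeR quasi-likelihood test, Benjamini-Hochberg over all tested genes), 4501 higher (27.1%) and 4654 lower (28%), with a median log2 change of −0.002 over all tested genes. At least 2-fold changes numbered 1459 higher (8.77%) and 1028 lower (6.18%), and at least 8-fold changes 138 and 51. All 3 treated libraries lay above all 3 untreated ones for 5055 genes (30.4%) and below them for 5232 (31.5%). The count of calls in any gene list below is to be read against 27.1% and 28%. The treated libraries were not alike in the size of the change: replicate 3 lay nearest to the untreated cells for 49.9% of the genes called higher and 49.4% of those called lower, and replicate 1 lay farthest for 49.6% and 52.1%. Levels are CPM scaled by TMM (trimmed mean of M-values) and changes are relative to the bulk of genes, so a change in the RNA content of the cells is not seen, and fewer cells of a kind cannot be told apart from less RNA per cell.

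Cells buffer zinc and copper with metallothioneins, small cysteine-rich proteins, and move zinc across membranes with exporters of the SLC30 family and importers of the SLC39 family. The transcription factor MTF1 senses free zinc and binds metal response elements in the promoters of metallothionein genes and of SLC30A1. Iron is taken up through the transferrin receptor and stored in ferritin, and it is a cofactor, with oxoglutarate, of the prolyl hydroxylases that mark the hypoxia-inducible factors (HIF) for degradation.

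Metallothionein genes were among the largest increases of the comparison. MT2A (ENSG00000125148, chromosome 16, 56608199 to 56609497, GRCh38) stood at 27.8, 35.9 and 34.2 CPM in the untreated libraries and at 3632, 3714 and 2763 CPM in the treated ones, 103-fold higher (log2 6.69 ± 0.26 SE, adjusted p = 9.64e-12). The groups were far apart, and treated replicate 3 was the lowest of its group. MT1X went from 12.5, 14.1 and 14.3 to 1109, 1263 and 888 CPM (79.7-fold, log2 6.32 ± 0.24), MT1G from 5.33, 7.23 and 8.49 to 725, 802 and 601 CPM (101-fold), and MT1E from 30.9, 40.6 and 37.4 to 1494, 1601 and 1146 CPM (39-fold). Among the genes nearly silent in untreated cells, MT1M held 0.1, 0.154 and 0.0518 CPM there against 304, 352 and 268 CPM with the drug (log2 11.47 ± 0.51). MT1B had 0 counts over the untreated libraries and 2255 over the treated ones, at least 774-fold higher against a floor of 3 counts over the group, and MT1H had 0 against 62 counts, at least 21.3-fold higher. Of 12 metallothionein genes matched, 9 were tested and all 9 rose, with a median log2 change of 6.69, or 6.66 with MT1B and MT1H at their bounds. That count is no measure of the family as a whole, since 4 of the 9 were under 1 CPM in every untreated library and passed the filter only through treated cells, and 3 (MT1L, MT3 and MT4) were not tested. The MT1 genes are close copies, and counts may pass between them.

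Promoters of a chosen few metal genes that rose are shown, because MTF1 is known to act on metallothionein genes and SLC30A1. They run from 250 bases before to 50 bases after the start, 5′ to 3′ on the gene's strand, from RefSeq on GRCh38.p14, with capitals on each match to the metal response element core, searched on both strands as TGCGCNC or TGCACNC, forms that differ by 1 letter and so never match the same letters of 1 strand. MT2A (chr16:56608334-56608633, plus strand) held 8 matches, MT1X (chr16:56682220-56682519, plus strand) 4, SLC30A1 (chr1:211579112-211579411, minus strand) 2 and SLC30A2 (chr1:26046069-26046368, minus strand) 3.
MT2A: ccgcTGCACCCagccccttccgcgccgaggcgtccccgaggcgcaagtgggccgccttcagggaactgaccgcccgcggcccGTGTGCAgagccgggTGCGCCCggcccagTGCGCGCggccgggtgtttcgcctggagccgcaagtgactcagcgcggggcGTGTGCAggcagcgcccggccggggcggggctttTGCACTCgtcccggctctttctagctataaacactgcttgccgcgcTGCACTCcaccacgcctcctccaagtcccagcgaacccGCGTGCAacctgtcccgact
MT1X: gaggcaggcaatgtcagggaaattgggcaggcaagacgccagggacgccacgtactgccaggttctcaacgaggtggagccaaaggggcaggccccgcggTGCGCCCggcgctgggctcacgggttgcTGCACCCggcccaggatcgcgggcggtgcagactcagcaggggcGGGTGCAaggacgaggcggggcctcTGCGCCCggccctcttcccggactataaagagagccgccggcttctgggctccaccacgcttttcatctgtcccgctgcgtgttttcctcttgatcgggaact
SLC30A1: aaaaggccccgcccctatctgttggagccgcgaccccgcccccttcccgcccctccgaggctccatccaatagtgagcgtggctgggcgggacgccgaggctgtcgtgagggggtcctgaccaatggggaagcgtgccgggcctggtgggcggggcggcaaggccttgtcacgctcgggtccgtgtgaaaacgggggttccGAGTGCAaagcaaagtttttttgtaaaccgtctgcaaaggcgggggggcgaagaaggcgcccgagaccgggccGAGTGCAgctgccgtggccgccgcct
SLC30A2: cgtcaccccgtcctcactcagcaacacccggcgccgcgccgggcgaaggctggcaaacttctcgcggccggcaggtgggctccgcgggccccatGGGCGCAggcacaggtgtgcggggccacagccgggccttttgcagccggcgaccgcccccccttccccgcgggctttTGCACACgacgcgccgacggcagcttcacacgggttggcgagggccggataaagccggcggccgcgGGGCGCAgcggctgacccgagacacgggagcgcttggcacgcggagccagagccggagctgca
Of 5 metallothionein genes with an entry in the promoter table (MT2A, MT1B, MT1X, MT1H and MT4), all 5 held at least 2 matches, against 8.59% of the 27305 promoters of the table and 12.1% of tested genes. The core is short, and 29.3% of all promoters held at least 1. Among genes called at least 2-fold higher 39.6% of 945 promoters held the core, close to the 38.4% of tested genes, and among those called at least 8-fold higher 44.9% of 78 did. At least 2 matches were in 13.7% and 21.8% of these sets. Both sets hold MT2A, MT1X, MT1B and SLC30A2, each with at least 2 matches. The shares, above all that of the smaller set, are therefore not separate from the metal genes described here. A match describes letters and not a bound site.

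Zinc exporters and importers moved mostly in opposite directions. SLC30A1, the plasma membrane zinc exporter (ENSG00000170385, chromosome 1, 211571568 to 211578742), stood at 37.7, 41.5 and 44.6 CPM in untreated and 313, 331 and 296 CPM in treated libraries (7.59-fold, log2 2.92 ± 0.10, adjusted p = 6.39e-12). SLC30A2, which loads zinc into vesicles, rose from 0.201, 0.0512 and 0.104 to 6.11, 5.12 and 4.55 CPM (log2 5.39 ± 0.30). In all, 5 of 8 tested exporters rose and none fell, among them SLC30A3 (log2 2.44) and SLC30A4 (2.16). However, 3 of the 8, SLC30A2 included, were under 1 CPM in every untreated library. The filter could keep such genes through treated cells alone, so the count is no measure of the exporters as a whole. The importer SLC39A10 went from 19.1, 18.2 and 17.9 to 3.85, 3.87 and 3.25 CPM, 5.03-fold lower (log2 −2.33 ± 0.12, adjusted p = 1.45e-10). All 3 treated libraries lay far below the untreated ones. Of 11 tested importers 8 fell and 2 rose, with SLC39A14, which also carries iron, at log2 −1.58 and SLC39A3 at −1.51, while SLC39A1 (0.34) and SLC39A8 (0.27) rose. The zinc sensor MTF1 itself was not called (log2 0.06).

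Copper genes moved in both directions. The copper-exporting ATPase ATP7A went from 11.7, 11.5 and 11.7 to 41.7, 34.6 and 37.8 CPM (3.28-fold, log2 1.71 ± 0.09), while the other of 2 export genes fell. The importer SLC31A1 rose by log2 0.71. The annotated span of ATP7A on chromosome X overlaps that of PGK1, so reads may be shared. The SCO1 and SCO2 chaperones, which deliver copper to cytochrome c oxidase, fell (log2 −1.27 and −1.44) with 1 other of 6 chaperones, and CCS, which loads superoxide dismutase, rose (0.49). No gene rose and 4 fell of 7 genes of protein lipoylation and its targets, LIAS at log2 −0.60. Over the whole copper list 3 of 17 rose and 8 fell, with a median of −0.27.

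Iron genes moved in both directions. TFRC, the transferrin receptor (chromosome 3, 196027183 to 196082189), went from 86.6, 79 and 85.7 to 377, 412 and 424 CPM (4.83-fold, log2 2.27 ± 0.09, adjusted p = 1.32e-11). FTH1, the ferritin heavy chain (chromosome 11, 61959718 to 61967660), went from 1055, 912 and 1073 to 11202, 9786 and 7458 CPM (9.36-fold, log2 3.23 ± 0.15), the largest gain in CPM of any called gene. For both genes the groups were wide apart, with treated replicate 3 the lowest for FTH1 and the highest for TFRC. The light chain FTL rose 1.63-fold. NCOA4, the receptor that sends ferritin to autophagy, fell (log2 −0.97), as did the exporter SLC40A1 (−0.90) and the ferrireductase STEAP3 (−1.63). Of 23 iron genes tested 9 rose and 7 fell. FTH1 has many processed copies in the genome, and counts may pass between them. HMOX1, the heme-degrading oxygenase, stood at 19.2, 19.1 and 16.8 CPM in untreated cells and at 287, 181 and 110 CPM in treated replicates 1, 2 and 3, a 10.5-fold rise (log2 3.39 ± 0.28) with a wide spread.

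**Figure D1:**
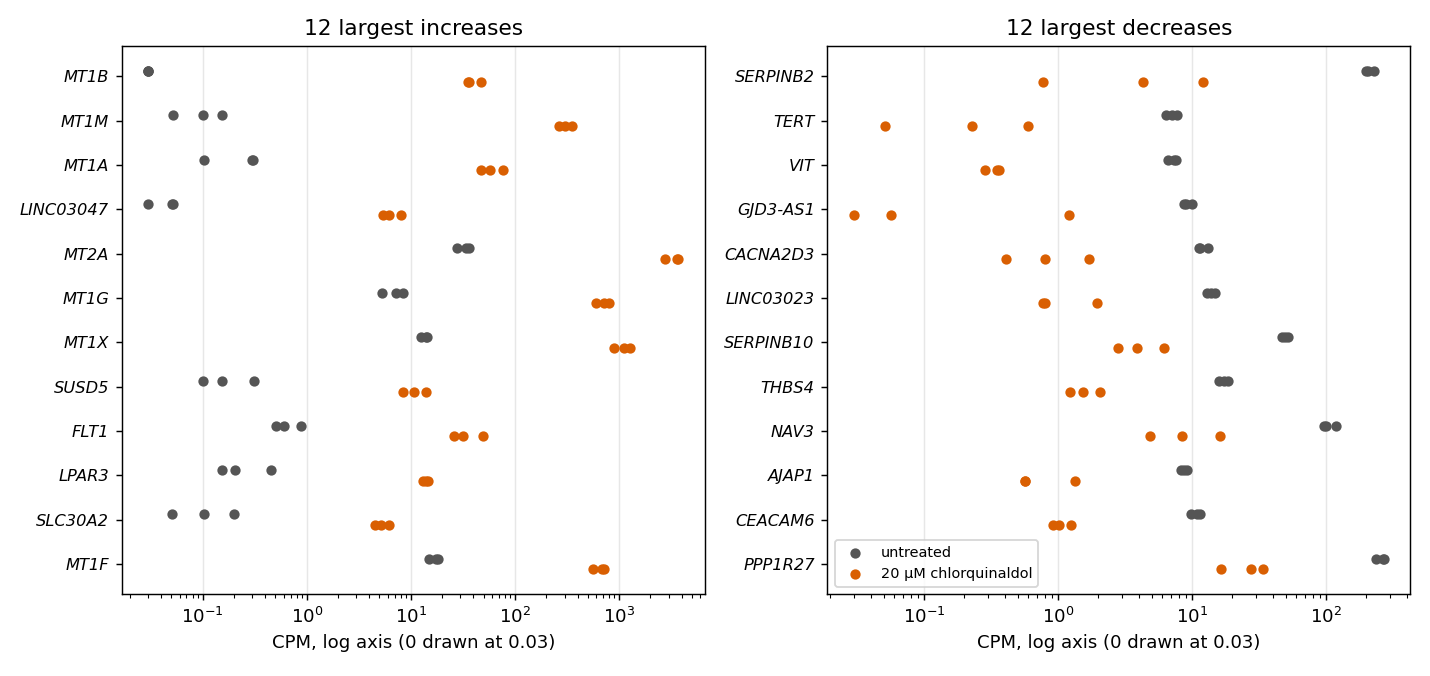
The 12 largest increases (left) and 12 largest decreases (right) among genes with a symbol, non-overlapping groups and a mean of 5 CPM or more in the higher one; each point is 1 library, on a log axis of CPM, in grey for untreated and orange for 20 μM. MT2A lies between 27.8 and 35.9 CPM untreated and between 2763 and 3714 CPM treated, and SERPINB2 between 198 and 229 CPM untreated and between 0.77 and 12.1 CPM treated.

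Outside metal handling, the largest increases included FLT1, a receptor for vascular endothelial growth factor, from 0.603, 0.512 and 0.88 to 49.8, 32 and 25.8 CPM (53.9-fold), the lysophosphatidic acid receptor LPAR3 (51.4-fold), SUSD5 (59-fold) and LINC03047, which had 2 counts in untreated and 368 in treated libraries, or 189 times as many after scaling (95% interval for counting error 52.1 to 1570). SERPINB2, an inhibitor of plasminogen activators, had the largest decrease among genes with a symbol and at least 5 CPM in untreated cells, from 206, 198 and 229 CPM to 0.77, 4.33 and 12.1 CPM (36.9-fold lower, log2 −5.19 ± 0.39, adjusted p = 1.22e-08). The 3 treated libraries were spread widely, and all stayed below the untreated ones. TERT, the catalytic subunit of telomerase, fell 24.1-fold from 6.38, 7.69 and 7.14 CPM, and PPP1R27 fell 9.91-fold from 235, 267 and 271 CPM. By loss of CPM, CA2, a carbonic anhydrase and zinc enzyme, had the largest drop of a nuclear gene, from 3552, 3063 and 3423 to 556, 921 and 1250 CPM (log2 −1.88 ± 0.19). PLIN2, which coats lipid droplets, gained the most after FTH1, from 1445, 1537 and 1969 to 6315, 6229 and 5084 CPM (3.56-fold).

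In a list of HIF targets and of oxygen sensing genes, 26 of 34 tested genes rose and 2 fell, with a median log2 change of 1.16. Both that fell were among the 7 oxygen sensing genes, of which 3 rose. Of 21 genes of mitophagy and adaptation 18 rose, as did 5 of 6 genes of angiogenesis and signalling, and none of these fell. FLT1 (above) was the steepest of the list. PLOD2, a collagen lysyl hydroxylase and itself an iron- and oxoglutarate-dependent enzyme, went from 16.3, 19.3 and 18.3 to 136, 131 and 118 CPM (7.14-fold, log2 2.84 ± 0.09, adjusted p = 1.63e-12). Its untreated and treated libraries each kept within a narrow range. VEGFA, the angiogenic ligand of FLT1, rose 2.18-fold from 196, 185 and 213 to 504, 398 and 393 CPM, ANGPTL4, an inhibitor of lipoprotein lipase, by log2 4.88, and the mitophagy receptor BNIP3 by 1.24. Among the oxygen sensors the prolyl hydroxylases EGLN3 (log2 2.47) and EGLN1 (1.05) rose and EGLN2 fell (−0.28), while the factor HIF1A was not called (−0.04). VHL, which targets hydroxylated HIF for degradation, was lower by log2 −0.31 (adjusted p = 0.00627), a call lost without treated replicate 2 (log2 −0.20, adjusted p = 0.0878). Only 1 HIF gene was lower without treated replicate 2 or treated replicate 3. The letters ACGTG, the core of a HIF site, read on both strands, were in 48.4% of 31 promoters of the list against 21.6% of all and 26.2% of tested genes. They were in 23.7% of 945 promoters of genes called at least 2-fold higher, 16.7% of 78 at least 8-fold higher and 27.6% of 663 at least 2-fold lower, so the share describes the chosen list and not the drug.

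Of 31 genes of glucose uptake, glycolysis and pyruvate control 22 rose and 4 fell, with a median of 0.71. PGK1, phosphoglycerate kinase, went from 1149, 1152 and 1219 to 3043, 3067 and 2459 CPM (2.43-fold, log2 1.28 ± 0.10), GAPDH from 2120, 2287 and 2369 to 4391, 4566 and 3595 CPM (1.85-fold) and the glucose transporter SLC2A3 from 78.3, 80.5 and 100 to 350, 322 and 280 CPM (3.67-fold). The groups did not overlap for any of these genes. ENO2, an enolase, rose 4.59-fold and the lactate dehydrogenase LDHA by log2 0.71. Against this direction the hexokinase HK3 fell 2.38-fold (log2 −1.25 ± 0.10) and the lactate carrier SLC16A1 by 0.48 on the log2 scale. Several of these genes are themselves known HIF targets, so these lists are not separate evidence.

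Cholesterol is built from acetyl-CoA by the mevalonate and sterol enzymes, whose genes are switched on together by SREBP when sterol in the endoplasmic reticulum is low; SCAP carries SREBP and INSIG1 and INSIG2 retain it. Of 21 enzymes 20 rose and none fell, with a median log2 change of 1.37. HMGCS1, the HMG-CoA synthase (chromosome 5, 43289395 to 43313512), went from 203, 203 and 229 to 1156, 1198 and 1121 CPM (5.47-fold, log2 2.45 ± 0.10, adjusted p = 1.32e-11). ACAT2 went from 98.4, 104 and 110 to 315, 328 and 290 CPM (2.98-fold). The treated libraries of both enzymes lay close to each other and well above the untreated ones. PMVK was the 1 enzyme not called (log2 −0.29). In the uptake group all 4 tested genes rose, the carrier STARD4 2.83-fold. Among the regulators INSIG2 (log2 1.91) and INSIG1 (1.36) rose, SCAP (−0.84), the protease MBTPS1 (−0.66) and SREBF1 (−0.37) fell, and SREBF2 was not called (0.13). INSIG2 is in the HIF list as well. In fatty acid synthesis 8 of 17 genes rose and 1 fell, with the acetyl-CoA synthetase ACSS2 at log2 1.48, the desaturases FADS2 at 0.93 and SCD at 0.85, while FASN was not called (0.17). The lower count there was 2 without treated replicate 3 or untreated replicate 3. The form TCACNCCAC of the sterol response element, on both strands, was found in none of 16 enzyme promoters and in 1.15% of all promoters, which says only that these letters are not in these windows.

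**Figure D2:**
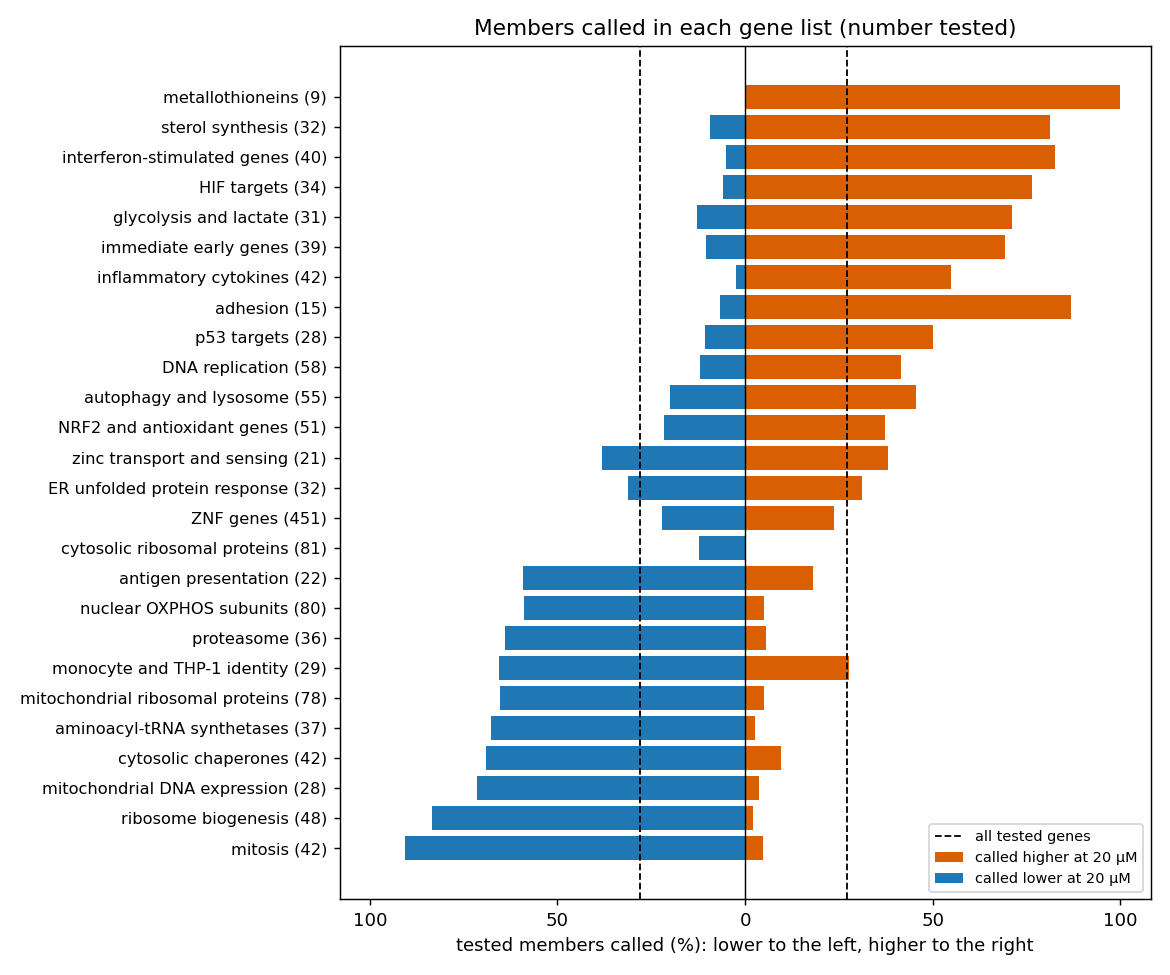
Share of the tested members of each gene list drawn that were called higher (orange, to the right) or lower (blue, to the left) at 20 μM, in percent. The number tested is in brackets. The lists drawn are a choice from 49, and iron and copper handling, among others, are not shown. Dashed lines mark 27.1% and 28%, the shares over all tested genes. Sterol synthesis, HIF targets and interferon-stimulated genes lie far beyond the line on the right, and mitosis, with 90.5% lower, and ribosome biogenesis, with 83.3% lower, on the left.

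Most messenger RNAs encoded by mitochondrial DNA fell, and MT-RNR1, one of its ribosomal RNAs, rose. The mitochondrial genome is transcribed as long RNAs that are cut into the 2 ribosomal RNAs, 13 messenger RNAs of the respiratory chain and 22 transfer RNAs. MT-CO2, a subunit of cytochrome c oxidase, went from 4284, 4248 and 3709 to 491, 933 and 1445 CPM (4.27-fold lower, log2 −2.09 ± 0.32, adjusted p = 2.6e-05). MT-CO1 went from 13668, 13193 and 11902 to 2604, 3623 and 5332 CPM (3.35-fold lower) and MT-ND6 from 621, 706 and 650 to 86.8, 108 and 219 CPM (4.79-fold lower). In each, treated replicate 1 was the lowest and replicate 3 the highest, and all stayed below the untreated libraries. Of the 13 messengers 11 fell, none rose, and the median was −1.40; MT-CYB (log2 −0.65, adjusted p = 0.0922) and MT-ND3 (−0.80, adjusted p = 0.131) were not called. The small ribosomal RNA gene MT-RNR1 went the other way, from 721, 765 and 855 to 2880, 2972 and 1621 CPM (3.19-fold, log2 1.67 ± 0.21, adjusted p = 3.89e-06). MT-RNR2 stood at 10341, 10417 and 11343 against 16047, 15038 and 10032 CPM, so that treated replicate 3 overlapped the untreated libraries, and its call (log2 0.36, adjusted p = 0.0305) was lost without treated replicate 1 (adjusted p = 0.104), treated replicate 2 (0.0684), untreated replicate 1 (0.0841) or untreated replicate 2 (0.0861). All mitochondrial genes together took 5.44% to 6.08% of the counts in untreated and 3.25% to 3.75% in treated libraries. RNA was selected by oligo(dT), so these levels depend on the poly(A) tails of each RNA as well as on its amount, and the part of the tails was not tested. Without the read strand, MT-ND6, encoded on the other strand, cannot be told apart from antisense RNA of its neighbours.

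**Figure D3:**
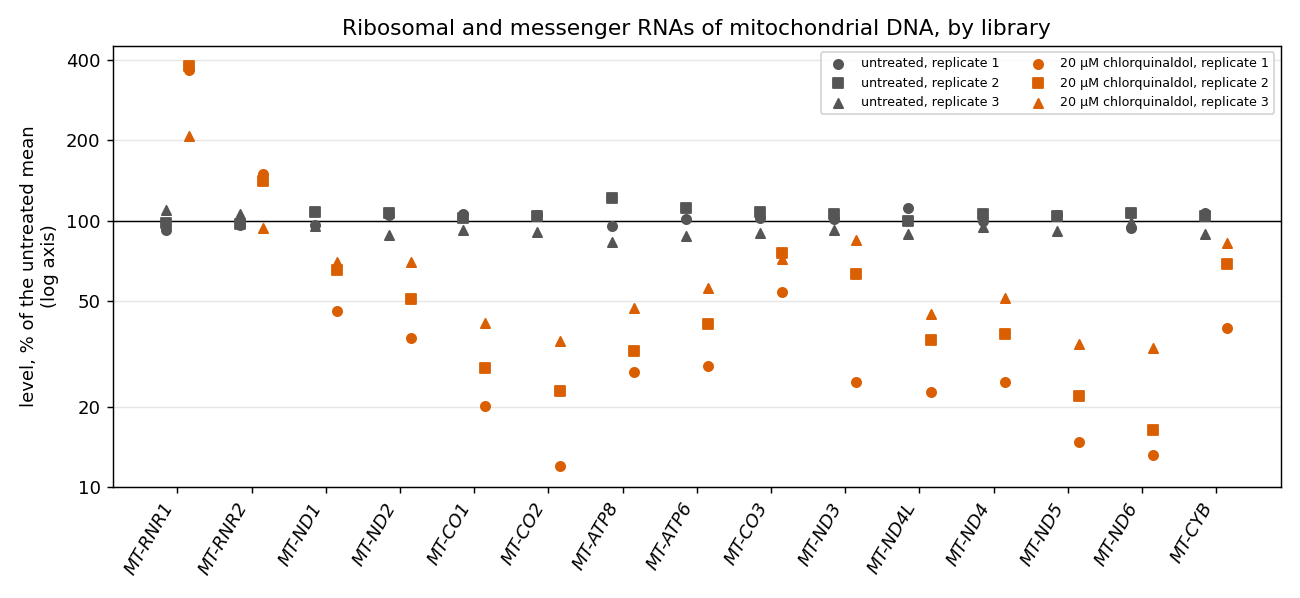
Level of each ribosomal and messenger RNA of mitochondrial DNA in every library, in percent of the mean of the untreated libraries on a log axis; grey symbols are untreated and orange symbols 20 μM libraries. MT-RNR1 lies above 100 in all 3 treated libraries, and MT-CO1, MT-CO2, MT-ND5 and MT-ND6 lie lowest in treated replicate 1.

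Nuclear genes that serve mitochondrial gene expression fell too. TWNK, the helicase of mitochondrial DNA, went from 13.9, 14.7 and 10.6 to 2.47, 3.24 and 3.9 CPM (4.07-fold lower, log2 −2.02 ± 0.17). POLRMT, the mitochondrial RNA polymerase, fell from 40.1, 42.8 and 38.1 to 19.9, 21.6 and 23.4 CPM, and the transfer RNA processing nuclease ELAC2 by 1.10 on the log2 scale. In this list 20 of 28 fell and 1, the elongation factor TEFM, rose by log2 0.39 with overlapping libraries; 13 fell without treated replicate 1, and TEFM was not called without treated replicate 2 (adjusted p = 0.13), untreated replicate 1 (0.102) or untreated replicate 2 (0.0942). Mitochondrial ribosomal proteins fell in 51 of 78 cases and rose in 4, with MRPL12 at log2 −1.29, from 53.8, 62.6 and 58.1 to 17.4, 25.6 and 28.2 CPM. Nuclear subunits of the respiratory chain fell in 47 of 80 cases and rose in 4, with a median of only −0.27 and NDUFS6 of complex I at −1.02. That count changed when single libraries were left out. Without treated replicate 1, 22 fell, and without treated replicate 3, 25 fell, while 2 rose without treated replicate 2 or untreated replicate 1. The median log2 change of all genes moved too, from −0.002 to 0.038 without treated replicate 1 or treated replicate 3. The part of this shift in scaling was not tested. Of the mitochondrial ribosomal proteins 2 rose without treated replicate 2, untreated replicate 1 or untreated replicate 2. Proteins of the cytosolic ribosome, by contrast, fell in 10 of 81 cases and rose in none, below the shares over all genes, with a median of −0.08. It was 2 lower and 8 higher without treated replicate 3, 2 lower without treated replicate 1 or untreated replicate 3, 6 without untreated replicate 2, and 16 without treated replicate 2 or untreated replicate 1.

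Genes that make ribosomes fell together. Of 48 genes of ribosome biogenesis 40 fell and 1 rose, with a median of −0.80. RRS1, a factor of large subunit assembly, went from 30, 29.4 and 27.8 to 4.16, 7.51 and 9.15 CPM (4.19-fold lower, log2 −2.07 ± 0.18), and WDR12, which acts at the same stage, from 50.3, 47.8 and 45.6 to 10.9, 19.2 and 18.9 CPM. Among the processing factors 31 of 34 fell, and among RNA polymerase I genes 9 of 14 fell, with the 1 riser, TAF1B, at log2 0.35, not called by limma on log2(FPKM + 1) (adjusted p = 0.391). The growth regulator MYC fell 2.15-fold from 172, 160 and 155 to 62.8, 79.6 and 83.8 CPM, and of its antagonists MXD1 rose by log2 1.44 and MXD3 fell (−1.23). Of 11 genes of the MYC network 2 rose and 6 fell, with a median of −0.54. Aminoacyl-tRNA synthetases, which charge transfer RNAs, fell in 25 of 37 cases, and 1 rose; 2 rose without treated replicate 1, and none by limma on log2(FPKM + 1). VARS1 fell by 1.19 and the mitochondrial EARS2 by 1.51 on the log2 scale.

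Cytosolic chaperones and the proteasome were lower as well. Of 42 chaperone genes 29 fell and 4 rose, with a median of −0.47. AHSA1, the activator of HSP90, went from 91.1, 95.4 and 89.2 to 37.6, 49.3 and 49.2 CPM (2.03-fold lower), the cochaperone STIP1 from 237, 236 and 223 to 120, 138 and 126 CPM, and the chaperonin subunit TCP1 fell by 0.89 on the log2 scale. The inducible HSPA1A fell, from 11.5, 11.9 and 13.8 to 6.63, 7.68 and 9.15 CPM. FKBP4 was an exception at log2 0.84. Proteasome genes fell in 23 of 36 cases and rose in 2 (1 without untreated replicate 1), and all 5 genes of the immunoproteasome and its activator fell, PSME2 from 127, 143 and 135 to 45.6, 59.3 and 64.5 CPM. In the endoplasmic reticulum list 10 of 32 rose and 10 fell, near the shares over all genes, with the chaperone HYOU1 at log2 −0.70 and the lectin OS9 at 0.58. Autophagy genes rose in 11 of 20 cases and 1 fell, with the cargo receptor SQSTM1 at 187, 174 and 186 against 387, 297 and 223 CPM and MITF at log2 1.99, while lysosomal enzymes were split, with 9 of 19 higher and 7 lower.

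Genes of the NRF2 pathway and of antioxidant defence were divided at this dose. Of 51 genes 19 rose and 11 fell, with a median of 0.15. The list mixes targets of NRF2 with 7 regulators and with other antioxidant genes, so these counts are not those of NRF2 targets alone. NQO1, a quinone reductase, went from 61.8, 58.8 and 62.3 to 187, 187 and 147 CPM (2.85-fold, log2 1.51 ± 0.09), and ME1, which makes NADPH, from 29.7, 27.5 and 29.1 to 129, 127 and 96.3 CPM (4.08-fold). BACH1, a repressor of HMOX1, rose by log2 1.45 and its partner MAFG fell by 1.20. Several textbook targets did not pass the test: TXNRD1, the cytosolic thioredoxin reductase, stood at 153, 145 and 142 against 166, 143 and 124 CPM (log2 −0.03 ± 0.11, adjusted p = 0.854), GCLM at log2 0.26 (adjusted p = 0.253) and SRXN1 at −0.33 (0.0501). TXNRD1 was 2.00 ± 0.12 log2 units higher at 50 μM than at 20 μM (adjusted p = 3.43e-09), and GCLM and SRXN1 were higher there by 2.17 and 1.62. The count of lower genes in this list was 6 without treated replicate 1, treated replicate 3 or untreated replicate 2, and 7 without untreated replicate 3.

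In a list of ATF4 and amino acid supply genes, 11 of 37 rose and 13 fell. The list mixes regulators, biosynthetic genes and transporters, so these counts are not those of ATF4 targets alone. EIF2AK2, which rose (log2 1.12), is in the list of nucleic acid sensing as well. Regulators made up 6 of the 11. ATF3 went from 7.39, 7.02 and 9.11 to 67.1, 53.2 and 34.6 CPM (6.59-fold, log2 2.72 ± 0.27) and DDIT3, also called CHOP, from 45.9, 51.3 and 63.9 to 139, 110 and 86.5 CPM (2.08-fold). For both, replicate 1 was the highest of the treated libraries and replicate 3 the lowest. The biosynthetic genes did not follow: 7 of 16 fell and 3 rose, with the folate enzyme MTHFD1 1.99-fold lower and asparagine synthetase, ASNS, not called (log2 0.03, adjusted p = 0.873).

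Genes of mitosis fell, while genes of DNA replication mostly did not. Of 42 mitotic genes 38 fell and 2 rose, with a median of −0.82. CDC20, the activator of the anaphase-promoting complex (chromosome 1, 43358955 to 43363203), went from 530, 561 and 535 to 102, 115 and 133 CPM (4.65-fold lower, log2 −2.22 ± 0.10, adjusted p = 3.31e-11). PLK1, a mitotic kinase, went from 138, 145 and 138 to 27.6, 32 and 38.2 CPM (4.31-fold lower), and KIF20A, a kinesin of cell division, from 94.2, 82.5 and 91.2 to 6.27, 11.4 and 15.4 CPM (8.11-fold lower). The treated libraries of all 3 genes lay far below the untreated ones, with replicate 1 the lowest. All 20 kinesin and spindle genes of the list fell. The 2 that rose were MYBL2 (log2 0.26) and CDK1 (0.34); the CDK1 libraries overlapped, and its call was lost without treated replicate 2 (adjusted p = 0.0742), untreated replicate 1 (0.0878) or untreated replicate 2 (0.056). Without treated replicate 1 or untreated replicate 3, 1 mitotic gene rose, and without untreated replicate 1 none did.

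In the replication list 24 of 58 genes rose and 7 fell, with a median of 0.14. TK1, a thymidine kinase, went from 95.6, 110 and 102 to 247, 237 and 202 CPM (2.23-fold), the G1 gatekeeper RB1 from 96.1, 83.1 and 90.1 to 160, 186 and 184 CPM (1.97-fold), and cyclin E2, CCNE2, from 18.7, 17.4 and 14.1 to 34.2, 44.8 and 38.8 CPM (2.35-fold). Cyclin A2, CCNA2, fell from 121, 116 and 123 to 55.5, 79.7 and 83.7 CPM. Of 16 licensing genes 4 rose and 3 fell, none by 2-fold, and of 8 nucleotide supply genes 6 rose and 1 fell. The count of lower replication genes was 3 without treated replicate 1 and 4 without untreated replicate 2. The cell-cycle inhibitor CDKN1A, a p53 target, went from 82.1, 91.8 and 105 to 554, 405 and 324 CPM (4.61-fold, log2 2.20 ± 0.16). Of the 28 p53 targets tested, CDKN1A included, 14 rose and 3 fell, with SESN1 at log2 1.08 and AEN at −1.53. Among regulators of cell death BCL2 fell 3.23-fold from 113, 104 and 109 to 28.8, 34 and 38 CPM, while the survival genes BCL2A1 (3.94-fold) and MCL1 (1.76-fold) and the BH3-only gene PMAIP1 (log2 0.97) rose.

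**Figure D4:**
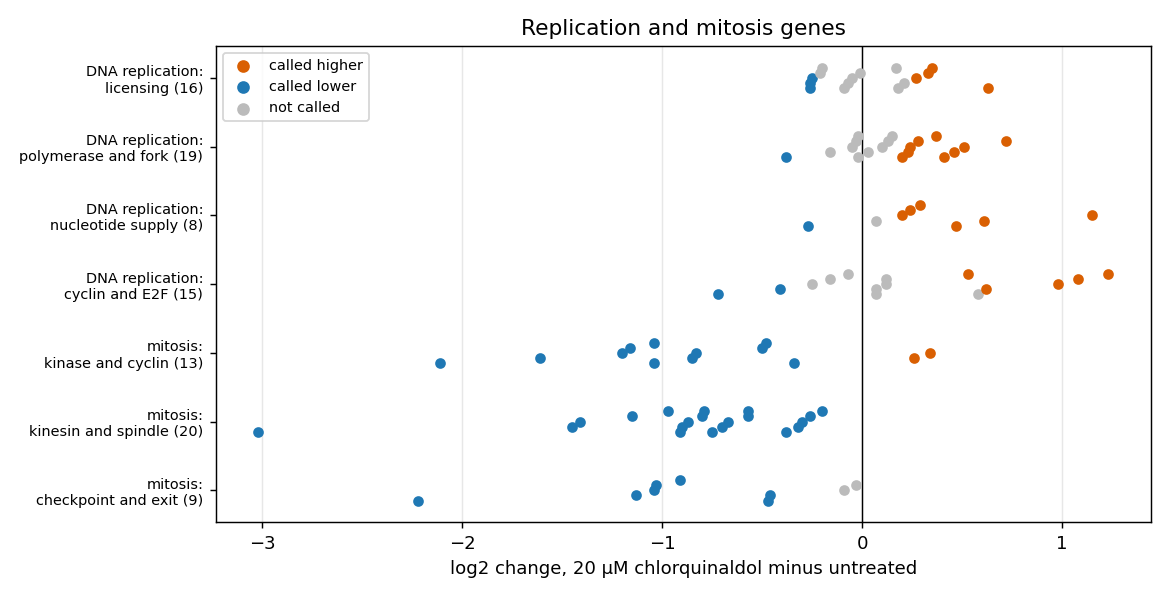
Log2 change at 20 μM against untreated cells for each tested gene of DNA replication (upper 4 groups) and mitosis (lower 3 groups), 1 point a gene, with orange for called higher, blue for called lower and grey for not called. All 20 kinesin and spindle genes lie left of 0, KIF20A at −3.02, and the replication groups lie on both sides.

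Interferon-stimulated genes are switched on when interferon signalling reaches its response elements in DNA. The list holds 33 antiviral effectors and 7 transcription factors. Of these 40 genes 33 rose and 2 fell, or 1 fell without treated replicate 2 or 3 or untreated replicate 2 or 3. Among the effectors 30 of 33 rose, with a median log2 change of 1.44. OAS1, a synthetase activated by double-stranded RNA (chromosome 12, 112906777 to 112933222), went from 10.4, 9.38 and 9.06 to 101, 84.1 and 72.7 CPM (8.94-fold, log2 3.16 ± 0.18, adjusted p = 4.41e-10). IFIT2 went from 3.92, 3.69 and 3.31 to 26.3, 25.4 and 25.4 CPM (7.07-fold) and IFIT3 from 4.87, 3.84 and 4.09 to 38.3, 32.8 and 33.3 CPM (8.16-fold). The untreated levels of these effectors were low and the groups did not overlap. IFITM2 fell by 0.31 on the log2 scale. Of the transcription factors IRF7 rose 3.51-fold and IRF9 by log2 1.06, STAT2 (−0.08) was not called, and IRF8, a factor of monocyte development, fell from 720, 715 and 738 to 203, 306 and 368 CPM (2.48-fold lower).

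The promoter of IFIT3 is shown because the effector promoters shared a motif that is rare elsewhere. The interferon-stimulated response element, read as GAAA, any 2 bases and GAAA, searched on both strands, were in 73.1% of the 26 effector promoters with an entry, against 3.65% of all 27305 and 2.97% of tested genes. Capitals mark the 2 matches, both on the opposite strand, in chr10:89327747-89328046, plus strand, from the same RefSeq table.
IFIT3: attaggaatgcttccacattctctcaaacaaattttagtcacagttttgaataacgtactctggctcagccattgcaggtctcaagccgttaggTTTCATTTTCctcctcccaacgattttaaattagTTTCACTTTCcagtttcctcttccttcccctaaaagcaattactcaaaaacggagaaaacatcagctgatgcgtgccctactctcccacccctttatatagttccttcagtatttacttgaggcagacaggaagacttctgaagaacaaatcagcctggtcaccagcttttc
The list was written from genes known to respond to interferon, so the share describes the list and not the drug. Among all genes called at least 2-fold higher 4.02% of 945 promoters held the motif.

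Of 18 sensing genes for foreign nucleic acid 9 rose and 3 fell. Of 8 RNA sensing genes 6 rose and 1 fell, with RIGI, the cytosolic RNA helicase, at 6.33, 5.84 and 7.3 against 19.3, 22 and 20.1 CPM (3.16-fold). In DNA sensing 3 of 10 rose and 2 fell, near the shares over all genes. Without untreated replicate 1, 1 of the 18 sensing genes fell. STING1, the adaptor that binds cyclic dinucleotides, went from 239, 259 and 239 to 178, 171 and 171 CPM (log2 −0.50 ± 0.08, adjusted p = 3.82e-05). The DNA sensor CGAS was not called (log2 0.15, adjusted p = 0.12), except without treated replicate 3 (0.23, adjusted p = 0.0345), while IFI16 rose from 18.3, 17.1 and 18.9 to 53.3, 53.9 and 46 CPM. Inflammasome genes rose in 9 of 16 cases and fell in 2, with the sensors NLRP1 4.74-fold higher and NAIP at log2 −0.74, and 1 fell without treated replicate 3.

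Inflammatory genes rose in 23 of 42 cases and 1, NFKBIE, fell (log2 −0.45, adjusted p = 0.0641 without treated replicate 3). None fell without that library, and 2 did without treated replicate 1, treated replicate 2 or untreated replicate 2. TNF went from 57, 73.8 and 91 to 290, 251 and 197 CPM (3.33-fold, log2 1.73 ± 0.23) and CXCL8, the neutrophil chemokine, from 106, 69.7 and 106 to 319, 316 and 194 CPM (2.94-fold). PTGS2, an enzyme of prostaglandin synthesis, went from 4.07, 4.2 and 6.42 to 39.9, 36.3 and 31.4 CPM (7.33-fold). In each of these genes treated replicate 3 was the lowest of its group and still above the untreated libraries. Of 14 chemokines 6 rose and none fell, with CCL2 and CXCL1 among those not called (log2 0.46 and −0.77). Immediate early genes, which respond to MAP kinase and calcium signals, rose in 27 of 39 cases and fell in 4. The MAP kinase phosphatase DUSP6 rose from 53.8, 49.7 and 56.8 to 198, 196 and 150 CPM (3.39-fold), and 11 of 13 feedback inhibitors of the pathway rose. EGR1 was not called, at 139, 235 and 322 against 247, 282 and 222 CPM, and DUSP2 fell (log2 −1.46).

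In a list of monocyte and THP-1 identity, 8 of 29 genes rose and 19 fell. It joins 9 granule protein genes with 20 monocyte markers, which are described apart below. All 9 granule protein genes fell, with a median of −1.26. CTSG, the protease cathepsin G, went from 325, 369 and 325 to 41.7, 56.9 and 52.1 CPM (6.77-fold lower, log2 −2.76 ± 0.10, adjusted p = 8.37e-12), and PRTN3, proteinase 3, from 241, 285 and 257 to 62.9, 71.5 and 68.2 CPM (3.87-fold lower). The calcium-binding S100A8 fell 7.67-fold from 65.8, 73.1 and 64 CPM. Myeloid transcription factors fell in 10 of 15 cases, among them GFI1, from 263, 236 and 235 to 71.8, 78.4 and 86.8 CPM, and MYB, from 437, 443 and 472 to 99.9, 137 and 186 CPM. Of the factors 2 rose, among them KLF4 (log2 1.48). Treated and untreated libraries did not overlap for any of these genes.

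Of 20 monocyte markers 8 rose and 10 fell, with a median of −0.16; CD68 (log2 −0.32) and FCGR1A (−0.39) fell and CD33 was not called (0.16). Among those that rose here or in the macrophage list, TREM1, an activating receptor of myeloid cells, went from 7.39, 7.43 and 8.49 to 68.6, 59 and 47.8 CPM (7.53-fold), the lipid scavenger CD36 from 15.7, 15.8 and 16.7 to 78.7, 118 and 99 CPM (6.13-fold) and the integrin ITGAM from 60.1, 59.2 and 60.4 to 200, 173 and 173 CPM (3.04-fold). Integrins rose in 13 of 15 cases, with ITGA4 the 1 that fell (log2 −1.02). CD14 rose from 22, 17.6 and 19.7 to 38.7, 47.4 and 41.9 CPM, and LYZ fell by 0.94 and MNDA by 2.00 on the log2 scale. Macrophage genes rose in 9 of 15 cases and fell in 3, with MARCO at log2 −1.69. Of 13 genes of MHC class I presentation 10 fell and 1 rose, HLA-B from 803, 841 and 857 to 508, 524 and 476 CPM, its regulator NLRC5 by 1.24 on the log2 scale, and ERAP2 the riser at 1.04, not called by limma on log2(FPKM + 1) (adjusted p = 0.106). Class II genes had 3 of 9 higher and 3 lower.

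Larger gene families had shares of calls at or below those of all tested genes, or a few points above them. Zinc finger genes with a ZNF symbol rose in 107 of 451 cases and fell in 100 (23.7% and 22.2%), with a median of 0.03. Solute carriers rose in 73 and fell in 81 of 234. Long intergenic RNA genes with a LINC symbol rose in 47 and fell in 61 of 274 (17.2% and 22.3%), LINC00926 from 164, 145 and 141 to 26.5, 21.8 and 34.6 CPM.

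Named genes were compared between 20 and 50 μM to see where the doses differed. Between the doses 3168 genes (19.1%) were called higher and 3159 (19%) lower at 50 μM, while limma on log2(FPKM + 1) gave 1839 and 3682. MT2A differed by log2 −0.27 ± 0.20 (adjusted p = 0.313), SLC30A1 by 0.08 ± 0.10 (0.551), TFRC by 0.07 ± 0.08 (0.533) and SLC39A10 by −0.17 ± 0.14 (0.371), none of which passed the test. MT1G was lower at 50 μM by 0.64 (adjusted p = 0.0131), with overlapping libraries. It stood at 607, 477 and 284 CPM there against 725, 802 and 601 CPM at 20 μM. HMGCS1 was higher by 0.32 ± 0.09 (adjusted p = 0.0108). HMOX1 was 3.96 ± 0.27 log2 units higher at 50 μM, at a mean of 3003 CPM, CXCL8 3.56 ± 0.21 higher and FTH1 1.30 ± 0.14 higher, while TNF was at −0.53 and did not pass (adjusted p = 0.0733). MT-CO2 was lower at 50 μM, at a mean of 239 CPM (adjusted p = 9.48e-05).

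**Figure D5:**
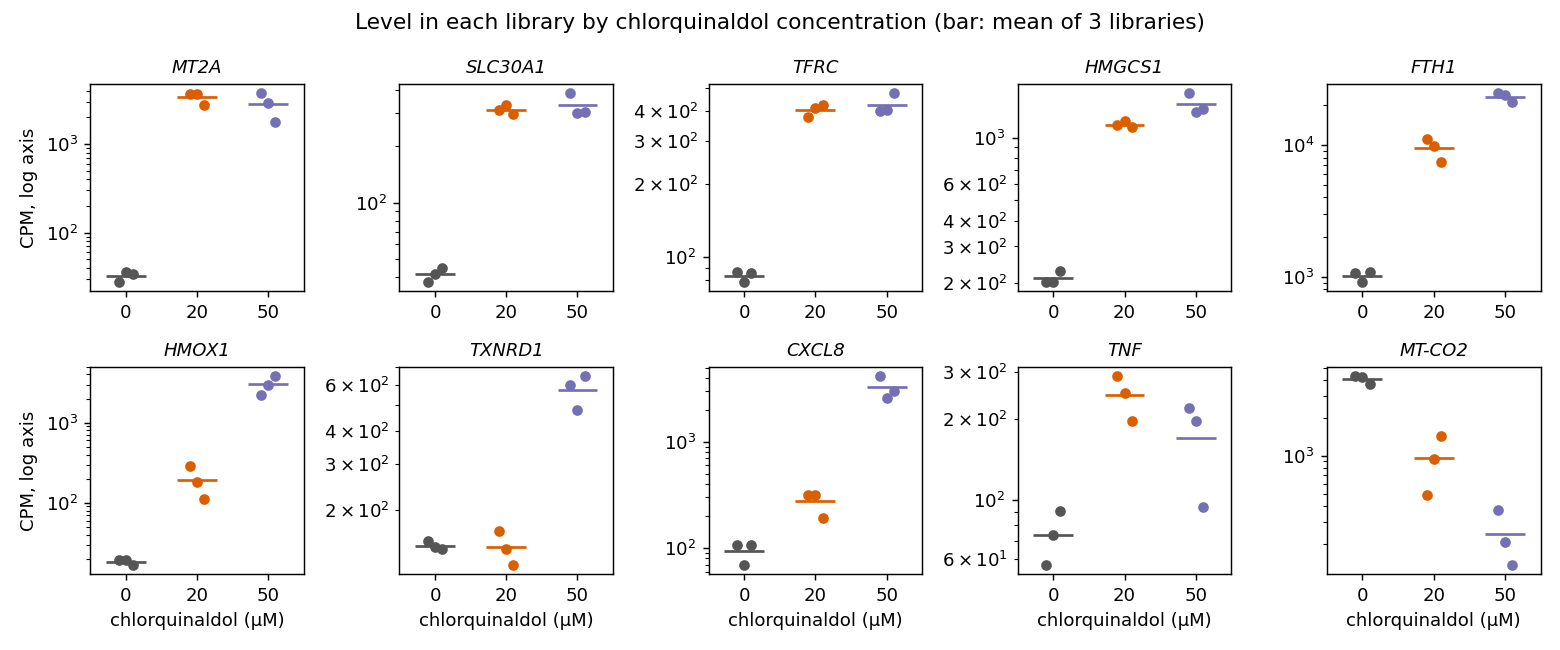
Level of 10 named genes in each library at 0, 20 and 50 μM chlorquinaldol, in CPM on a log axis that differs between panels, with a bar at the mean of 3 libraries. MT2A lies between 2763 and 3714 CPM at 20 μM and at a mean of 2799 CPM at 50 μM, and TXNRD1, at 124 to 166 CPM at 20 μM, lies at a mean of 574 CPM at 50 μM.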

How the data were processed

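Tables of 2 kinds for 12 libraries were used. Estimated counts and FPKM per gene come from the authors' run of RSEM on GRCh38, per the submitters' processing notes, which also name DESeq2 1.26.0. RSEM version, annotation and read strand are not given in the sources used here, so reads of overlapping genes on opposite strands cannot be told apart. RNA was oligo(dT)-selected, per the labels. Estimated counts were rounded. The 326 entries without an Ensembl ID (0.182% to 0.29% of counts) were left out. All 12 libraries were fitted in 1 model of 4 groups with edgeR 4.0.16 (R 4.3.3, TMM, filterByExpr minimum count 10, quasi-likelihood F-test), adjusted by Benjamini-Hochberg over 16628 genes and called below 0.05. SE is the log2 change over the square root of F. With 3 against 3 the smallest exact p is 0.1, so tests rest on the spread pooled over genes. On simulated data with 15773 genes 87% of 2-fold higher and 77.1% of 2-fold lower genes were recovered, and 3.93% of calls were false. The simulation changed only 46 to 50 genes per size of change and drew counts from the model that the test assumes. In the real comparison 55.1% of genes were called, so these rates need not hold for its calls. Positions are from GENCODE 29, promoters from RefSeq.

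Members and lists were chosen with earlier results of these data known. Genes were named by rule: the 12 largest increases and decreases (with a symbol, at least 5 CPM in the higher group, no overlap), the 8 largest gains and losses in CPM, up to 3 members per list with the smallest p plus the first called in the opposite direction, and a panel of 24; not every one is described, and further list members were picked after their values were seen. The fit was repeated without each library in turn, with thresholds of 0.01 and of 2-fold, with a replicate block, with DESeq2 1.42.0, with other scaling (upper quartile or RLE), on the compared groups alone, without the filter or with one of 5 CPM in 3 libraries, and with limma 3.58.1 on log2(FPKM + 1), also over every gene, and on log2(FPKM + 0.1). Counting intervals are at 95% and cover counting error only.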

Additional observations from a re-analysis of the deposited data

How the results depend on the processing

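Counts of genes called at 20 μM against untreated cells stayed within 1.5 times of 4501 higher and 4654 lower under every alternative but the 2-fold threshold (1459 and 1028). With DESeq2 they were 4273 and 4155, and on leaving out single libraries 3970 to 4720 and 3843 to 4240. For 50 against 20 μM the 2-fold threshold gave 758 higher and 555 lower, an adjusted p below 0.01 gave 2089 lower, and limma gave 1839 higher with log2(FPKM + 1), 1750 with log2(FPKM + 0.1) and 1645 over all FPKM genes, with 3682, 3737 and 2830 lower; leaving out single libraries gave 2769 to 3350 higher and 2385 to 3087 lower. The cause was not tested. Of 194 named genes 177 kept their call under all alternatives other than the 2-fold and 0.01 thresholds, and none changed direction. Same-numbered libraries of the untreated and 20 μM groups did not deviate together (correlations −0.0118, −0.0127 and −0.105). The labels state no pairing, and weak correlations between so few libraries cannot exclude one. With the replicate block 4391 genes were higher and 4573 lower (3036 and 3059 for 50 against 20 μM). Low counts limit genes such as MT1H, with 62 counts in treated cells and 0 in untreated ones.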
